A study of Homo sapiens with 8 samples.

Results

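The CEACAM family members CEACAM1, CEACAM5, CEACAM6 and CEACAM7, the tetraspanins TSPAN1 and TSPAN8, and the surface antigens EPCAM, MSLN and PSCA were followed in CFPAC-1 cells with and without an ADRA2A transgene. They are 9 of the 58870 genes of the deposited count table, chosen by symbol, and all 9 passed the filter on low counts, which kept 14785 genes. CFPAC-1 is an established human cell line from a ductal adenocarcinoma of the pancreas. RNA sequencing was done on 4 samples labelled empty vector and 4 labelled with the ADRA2A transgene, which encodes the alpha-2A adrenergic receptor. All 8 were left untreated and were grown for 72 hours in the same serum-supplemented medium. The promoter that drives the transgene, and whether either line was a clone or a pool, were not given in the sources used here. Nor was it stated that replicates were grown as separate cultures. The p-values therefore set the difference between groups against the spread between these samples, which may be technical. The study's title ties ADRA2A to the basal-like or squamous subtype of pancreatic cancer, and expression was compared between the lines with and without the transgene. Any other difference between the lines would follow the same grouping, so these samples cannot separate it from an effect of the transgene. The part of such line differences in the results was not tested.

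CEACAM proteins are immunoglobulin-like adhesion molecules of the cell surface. CEACAM1 crosses the membrane and carries inhibitory signalling motifs, whereas CEACAM5 (carcinoembryonic antigen, a serum tumour marker), CEACAM6 and CEACAM7 are held by a lipid (GPI) anchor. Tetraspanins such as TSPAN1 and TSPAN8 organise integrins and other receptors into membrane patches. EPCAM is an epithelial adhesion molecule, MSLN (mesothelin) is a GPI-anchored protein that binds the mucin MUC16, and PSCA (prostate stem cell antigen) is a small GPI-anchored protein of the LY6/uPAR family. Several of these proteins are studied as targets of antibodies or engineered T cells in pancreatic cancer.

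The 4 CEACAM genes lie on the long arm of chromosome 19 and have related promoters, which are shown because the 4 genes did not all behave alike. RefSeq promoter windows (GRCh38.p14, from 250 bases before to 50 after a gene's start) were matched for 6 of the 9 members, in 7 windows. The 250 bases before the start are given 5′ to 3′ on the strand of the gene, with the E-box CACGTG, a site of USF and related factors, in capitals. They are chr19:41708376-41708625 on the plus strand for CEACAM5, chr19:41755280-41755529 on the plus strand for CEACAM6, chr19:41688271-41688520 on the minus strand for CEACAM7 and chr19:42528482-42528731 on the minus strand for CEACAM1.
CEACAM5: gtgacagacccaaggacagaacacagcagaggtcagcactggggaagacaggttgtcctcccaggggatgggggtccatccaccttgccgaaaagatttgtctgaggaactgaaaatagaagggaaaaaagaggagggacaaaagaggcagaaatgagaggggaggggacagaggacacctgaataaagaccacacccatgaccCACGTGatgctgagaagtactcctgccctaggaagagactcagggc
CEACAM6: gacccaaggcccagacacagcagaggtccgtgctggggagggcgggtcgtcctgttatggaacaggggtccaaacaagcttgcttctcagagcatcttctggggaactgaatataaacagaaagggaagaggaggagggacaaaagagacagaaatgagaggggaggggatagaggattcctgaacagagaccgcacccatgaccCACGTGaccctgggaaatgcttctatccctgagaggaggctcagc
CEACAM7: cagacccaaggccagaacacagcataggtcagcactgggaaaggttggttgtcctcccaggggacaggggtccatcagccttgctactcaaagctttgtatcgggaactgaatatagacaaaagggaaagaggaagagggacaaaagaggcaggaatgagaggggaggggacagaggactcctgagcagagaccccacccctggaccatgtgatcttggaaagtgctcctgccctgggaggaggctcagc
CEACAM1: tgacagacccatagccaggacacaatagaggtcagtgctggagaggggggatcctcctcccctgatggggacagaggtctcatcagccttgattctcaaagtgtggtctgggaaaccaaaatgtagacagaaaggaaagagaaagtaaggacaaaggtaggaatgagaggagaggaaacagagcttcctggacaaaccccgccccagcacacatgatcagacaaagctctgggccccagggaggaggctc
In a global alignment CEACAM5 and CEACAM6 shared 74.6% of aligned columns, CEACAM5 and CEACAM7 80.5%, and CEACAM5 and CEACAM1 66.2%. The E-box began 46 bases before the start of CEACAM5 and 45 bases before that of CEACAM6. The bases aligned with it read catgtg in CEACAM7 and cacatg in CEACAM1. An E-box was present in 7.23% of the 34943 RefSeq promoter windows, searched on both strands. The pattern of paired sites for interferon regulatory factors, present in 3.57% of windows, matched the CEACAM1 window 116 bases before its start and a TSPAN8 window just past its start. The TEAD pattern CATTCC, present in 14.04% of windows, matched in CEACAM1, in CEACAM7 and in a window of TSPAN8. The SP1-type pattern GGGCGG matched in CEACAM1, in CEACAM6 and in TSPAN8, against 44.9% of all windows. The TATA box pattern TATAAA, present in 11.57% of windows, matched only in CEACAM6, 139 bases before its start. The patterns of CDX and AP-1 factors, the CREB site TGACGTCA and the GATA site AGATAA, on either strand, had no match in the 7 windows of the members.

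Library totals lay between 14427040 and 17528910 counts. ADRA2A had 0 counts in all 4 empty-vector libraries and between 112 and 172 counts in the 4 transgene libraries. The keratins of duct epithelium were abundant, with a summed level of 6 duct markers between 11239 and 11784 CPM (counts relative to the TMM-scaled library size) in the empty-vector libraries and between 10913 and 12017 CPM in the ADRA2A libraries. Of the 5 duct markers tested, KRT7 (log2 fold change -0.43), KRT18 (-0.09) and CDH1 (-0.33) were lower in the ADRA2A cells, KRT19 (0.20) was higher and KRT8 (0.05) was not called; their part in the results was not tested. CFTR, a defining duct channel, had only between 4 and 20 counts. SMAD4, which CFPAC-1 cells are known to lack, had 0 counts in all 8 libraries, which allows up to 3 per library. Of the leukocyte markers, CD3E, ELANE and FCGR3B were at 0 and PTPRC had at most 4 counts per library. The sum of the 9 leukocyte markers was 90.2 to 96.2 CPM without and 110.0 to 121.0 CPM with the transgene, nearly all of it from CD68, a lysosomal gene that epithelial cells also express. The 7 fibroblast markers summed to at most 2.27 CPM in any library, the 3 endothelial markers to at most 2.85 CPM, and 6 of 8 acinar and endocrine markers were at 0.

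Of the 9 members, 8 were higher in the ADRA2A cells, 0 were lower and CEACAM6 did not pass the test (edgeR's quasi-likelihood test, Benjamini-Hochberg adjusted p under 0.05 over all genes tested). Over all 14785 genes tested, 42.7% were called, 21.6% higher and 21.1% lower. For 6 members every ADRA2A library lay above every empty-vector library, and the libraries stood apart in this way for 39.2% of all genes tested, 19.7% higher and 19.5% lower. The median log2 fold change of the 9 members was 0.72, and that of all genes tested was 0.00. CEACAM5 and CEACAM7 were higher by at least 2-fold, a size that 2.55% of all tested genes reached as higher calls. The members were chosen with earlier results of these data known, so their count describes them and is not independent evidence of a direction. In bulk RNA, more cells expressing a gene and more RNA per cell cannot be told apart.

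**Figure D1:**
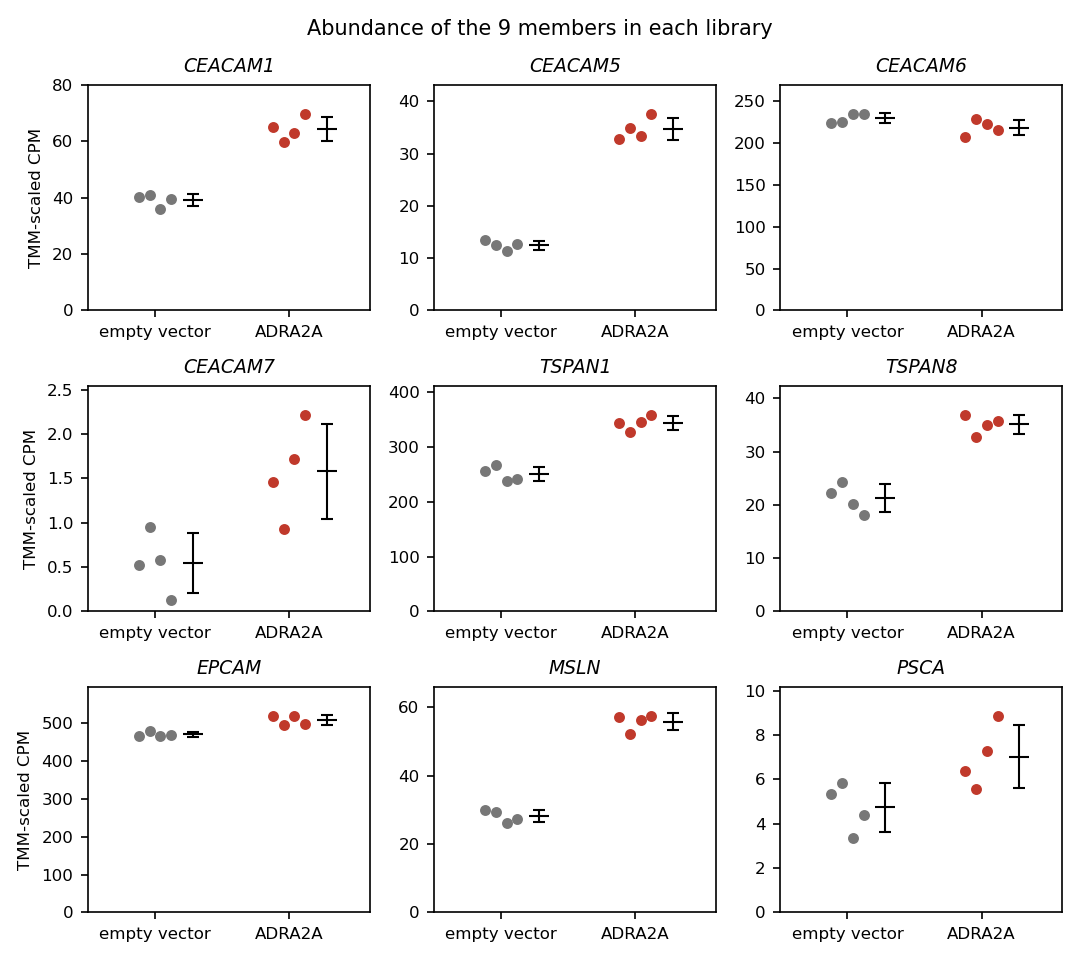
TMM-scaled CPM (vertical axes, each from 0) of the 9 members in the 4 empty-vector (grey) and 4 ADRA2A (red) libraries, with the mean and SD of each group in black. The libraries of the groups stand apart for 6 members and overlap for CEACAM6, CEACAM7 and PSCA.

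CEACAM5 (ENSG00000105388.15; chromosome 19, 41708585 to 41730433, plus strand, 10 exons in its canonical transcript) showed the clearest change of the family. It had 13.4, 12.5, 11.3 and 12.8 CPM in empty-vector replicates 1 to 4. In ADRA2A replicates 1 to 4 it had 32.8, 34.8, 33.4 and 37.6 CPM. All 4 ADRA2A libraries lay above all 4 empty-vector libraries. The means were 12.5 ± 0.870 and 34.6 ± 2.13 CPM (SD, n = 4 each), a 2.77-fold rise with a log2 fold change of 1.47 ± 0.07 (SE) at an adjusted p of 5.02e-12 in edgeR. It ranked 81st of all genes tested by p-value.

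CEACAM5 was the only member with estimated counts that were not whole, in 7 of 8 libraries, which marks reads that RSEM divided between genes. Of its transcript's 50-base windows, 6.26% also stood in transcripts of other genes, among them CEACAM1 and CEACAM6. At 100 bases the share was 1.91%, all of it in an annotated readthrough gene, AC243967.1, that spans CEACAM5 and CEACAM6. That gene had between 0 and 56.8 counts per library. Adding its counts to CEACAM5, an alternative chosen after seeing the data, gave a log2 fold change of 1.502 ± 0.08 (SE) at an adjusted p of 1.61e-11 in edgeR.

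CEACAM6 (ENSG00000086548.9; chromosome 19, 41750977 to 41772211, plus strand) lies next to CEACAM5 and was the most abundant of the 4. Its 4 empty-vector libraries had 224.2, 225.8, 234.9 and 235.0 CPM. The ADRA2A libraries had 207.4, 228.8, 222.8 and 215.3 CPM. ADRA2A replicate 2 lay within the empty-vector range and the other 3 below it. The groups thus overlapped, with means of 230.0 ± 5.78 and 218.6 ± 9.26 CPM (SD, n = 4 each). Its fitted log2 fold change was -0.07 ± 0.04 (SE) at an adjusted p of 0.123 in edgeR, and its 95% interval ran from -0.15 to 0.00, which does not show that CEACAM6 was the same in both groups. CEACAM6 shared 8.25% of its 50-base windows with other genes, and its estimated counts were whole in every library.

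CEACAM1 (ENSG00000079385.22; chromosome 19, 42507304 to 42561234, minus strand) rose in every ADRA2A library. It had 40.3, 41.1, 36.0 and 39.4 CPM in the empty-vector libraries. With the transgene it had 65.2, 59.9, 62.9 and 69.8 CPM. The rise from 39.2 ± 2.23 to 64.5 ± 4.15 CPM (SD, n = 4 each) was 1.65-fold, without overlap, at a log2 fold change of 0.72 ± 0.06 (SE) at an adjusted p of 3.82e-09 in edgeR. The gene-level counts do not separate its long and short splice forms, which differ in the inhibitory tail.

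CEACAM7 (ENSG00000007306.15; chromosome 19, 41673303 to 41706976, minus strand), a gene of normal colon epithelium, was close to the limit of detection. The empty-vector libraries held 9, 14, 10 and 2 counts. The ADRA2A libraries held 21, 14, 30 and 35 counts. After scaling, 3 of the 4 ADRA2A libraries lay above all empty-vector libraries and ADRA2A replicate 2 did not. The means were 0.547 ± 0.335 and 1.58 ± 0.538 CPM (SD, n = 4 each), at a log2 fold change of 1.53 ± 0.40 (SE) at an adjusted p of 0.00399 in edgeR. The interval of this fold change, from 0.70 to 2.35, was the widest of the 9 members.

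The CEACAM make-up shifted within each library, a comparison that does not depend on scaling between libraries. CEACAM6 had between 16.7 and 20.8 times the counts of CEACAM5 in the empty-vector libraries and between 5.73 and 6.67 times in the ADRA2A libraries. The log2 ratio of CEACAM6 to CEACAM5 went from 4.21 ± 0.13 to 2.66 ± 0.10 (SD, n = 4 each), a difference of -1.55. The ratio of CEACAM1 to CEACAM5 also fell without overlap, from between 3.01 and 3.30 to between 1.72 and 1.99. Of the CPM summed over these 4 genes, which leaves out CEACAM19, CEACAM6 made up 81.5% ± 1.21 without and 68.5% ± 1.89 with the transgene (SD, n = 4 each). CEACAM1 made up 13.9% ± 0.876 and 20.2% ± 1.42, and CEACAM5 4.43% ± 0.332 and 10.9% ± 0.499. The sum itself went from 282.2 ± 3.80 to 319.2 ± 8.46 CPM (SD, n = 4 each). Longer transcripts yield more reads, so these shares are shares of reads and not of molecules.

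**Figure D2:**
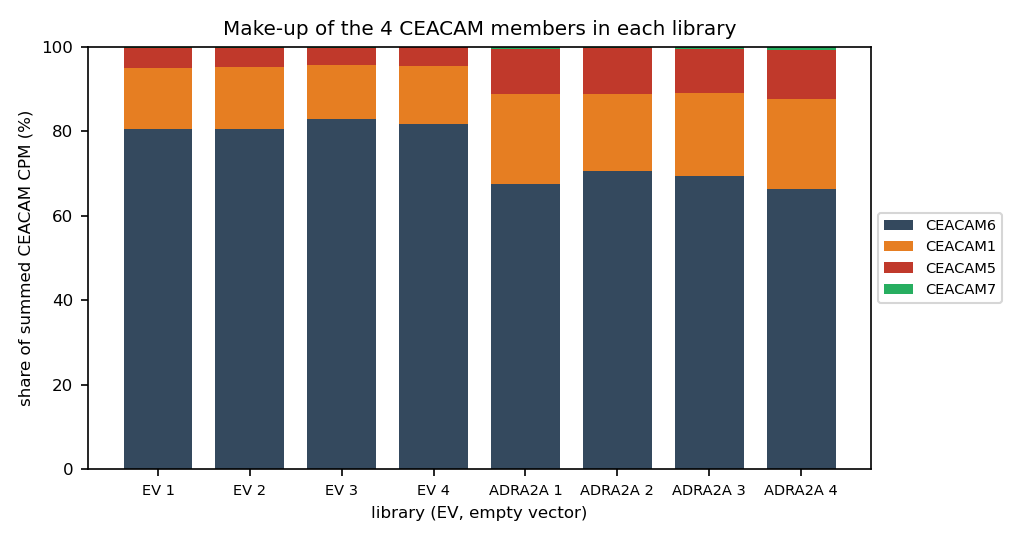
Share of the CPM summed over the 4 CEACAM members (vertical axis, percent) taken by CEACAM6, CEACAM1, CEACAM5 and CEACAM7 in each of the 8 libraries. CEACAM6 takes between 80.5% and 83.1% in the empty-vector libraries and between 66.3% and 70.5% in the ADRA2A libraries, with CEACAM1 and CEACAM5 larger in all 4 of the latter.

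Of 8 other CEACAM genes, 7 had at most 2 counts in any library and were not tested. The eighth, CEACAM19, had more CPM than CEACAM5 in the empty-vector cells (17.6 ± 1.07 and 17.96 ± 2.42 CPM without and with the transgene, SD, n = 4 each). It had a log2 fold change of 0.03 ± 0.09 (SE) at an adjusted p of 0.833 in edgeR, which turned to -0.067 without ADRA2A replicate 4.

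TSPAN1 (ENSG00000117472.10; chromosome 1, 46175073 to 46185962, plus strand) was the second most abundant member. The empty-vector libraries had 255.3, 267.2, 237.9 and 241.2 CPM. The ADRA2A libraries had 343.6, 327.8, 345.5 and 358.1 CPM. Every ADRA2A library was above every empty-vector library, and the rise from 250.4 ± 13.5 to 343.7 ± 12.4 CPM (SD, n = 4 each) gave a log2 fold change of 0.46 ± 0.04 (SE) at an adjusted p of 1.68e-08 in edgeR.

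TSPAN8 (ENSG00000127324.9; chromosome 12, 71125085 to 71441898, minus strand), a tetraspanin of digestive tract carcinomas, was less abundant than TSPAN1. Its empty-vector libraries had 22.3, 24.3, 20.2 and 18.2 CPM. Its ADRA2A libraries had 36.9, 32.8, 35.04 and 35.7 CPM, all above the empty-vector range. The means were 21.2 ± 2.64 and 35.1 ± 1.71 CPM (SD, n = 4 each), with a log2 fold change of 0.73 ± 0.08 (SE) at an adjusted p of 2.38e-07 in edgeR. Within libraries the log2 ratio of TSPAN8 to TSPAN1 went from -3.57 ± 0.12 to -3.29 ± 0.05 (SD, n = 4 each), again without overlap.

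Other tetraspanins went both ways. Of 31 genes 22 were tested, with 10 higher and 4 lower in the ADRA2A cells and a median log2 fold change of 0.21. Without empty-vector replicate 2 the number lower was 2. CD82, which restrains integrin-driven motility, rose from 25.9 ± 3.33 to 48.3 ± 3.66 CPM (SD, n = 4 each; log2 fold change 0.90 ± 0.08, SE, with edgeR adjusted p = 1.22e-08). TSPAN3 (log2 fold change 0.56) and TSPAN15 (0.27) also rose. TSPAN18 fell most (log2 fold change -1.08, edgeR adjusted p = 0.0113). TSPAN2 fell by 0.55 on the log2 scale, TSPAN14 by 0.22 and TSPAN5 by 0.14. CD9 was not called, at a log2 fold change of -0.02.

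All 11 listed membrane partners of tetraspanins were tested, and 5 were higher and 3 lower. PTGFRN, a direct partner of CD9 and CD81, rose by a log2 fold change of 0.47. ITGA2, the collagen-binding integrin alpha subunit, fell from 153.1 ± 6.05 to 89.0 ± 5.09 CPM (SD, n = 4 each; log2 fold change -0.78 ± 0.05, SE, with edgeR adjusted p = 4.35e-11). CDH1, E-cadherin, fell by 0.33 on the log2 scale. ITGB4 (log2 fold change 0.26) rose, and its alpha partner ITGA6 was not called at -0.02.

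EPCAM (ENSG00000119888.10; chromosome 2, 47345158 to 47387601, plus strand) was the most abundant member and changed least of those called. It had 467.4, 478.8, 466.0 and 470.0 CPM in the empty-vector libraries. In the ADRA2A libraries it had 519.1, 495.6, 518.7 and 496.8 CPM. The groups did not overlap, with means of 470.5 ± 5.77 and 507.5 ± 13.1 CPM (SD, n = 4 each), but the log2 fold change was only 0.11 ± 0.03 (SE) at an adjusted p of 0.00705 in edgeR. That is a rise of 7.87%.

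Genes that pair with EPCAM or cut it moved by small amounts. Of 13 genes tested, 7 were higher and 3 lower. The sheddase genes ADAM10 and ADAM17 each rose by a log2 fold change of 0.22. Of the gamma-secretase genes, NCSTN rose from 127.7 ± 3.10 to 176.0 ± 5.07 CPM (SD, n = 4 each; log2 fold change 0.46 ± 0.04, SE, with edgeR adjusted p = 4.82e-09). APH1A rose by 0.14, while PSENEN was not called. CLDN7, a claudin that binds EPCAM, fell from 78.0 ± 0.988 to 63.4 ± 2.42 CPM (SD, n = 4 each; log2 fold change -0.30 ± 0.04, SE, with edgeR adjusted p = 1.38e-05).

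MSLN (ENSG00000102854.16; chromosome 16, 760734 to 768865, plus strand) nearly doubled. The empty-vector libraries had 30.0, 29.4, 26.2 and 27.4 CPM. The ADRA2A libraries had 57.2, 52.1, 56.2 and 57.4 CPM, far above the empty-vector range. The means were 28.2 ± 1.78 and 55.7 ± 2.47 CPM (SD, n = 4 each), a 1.97-fold rise with a log2 fold change of 0.98 ± 0.06 (SE) at an adjusted p of 4.39e-11 in edgeR.

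MUC16, the mucin that mesothelin binds, varied widely between libraries. It had 85.4, 67.0, 54.2 and 50.9 CPM in the empty-vector libraries and 93.8, 60.9, 71.2 and 105.5 CPM in the ADRA2A libraries, with overlap. The log2 fold change of 0.36 ± 0.14 (SE) did not pass (edgeR adjusted p = 0.0507; between 1.63e-11 and 0.254 over all alternatives). It passed without empty-vector replicate 1 (log2 fold change 0.53, adjusted p = 0.0031), ADRA2A replicate 2 (0.48, adjusted p = 0.0081) or ADRA2A replicate 3 (0.43, adjusted p = 0.0321), and without ADRA2A replicate 4 the log2 fold change was 0.22. With a mean of at least 50 counts it also passed (edgeR adjusted p = 0.0474), and with DESeq2 it did not (adjusted p = 0.254). With no filter on low counts it passed at an edgeR adjusted p of 1.63e-11, but its log2 fold change stayed at 0.36. That fit also moved the edgeR adjusted p of CEACAM5 to 3.30e-72 at a log2 fold change of 1.47, and that of CEACAM6 to 0.189. Its p-values are therefore not comparable with those of the main fit. The mesothelin relatives MSLNL, OTOA and STRC had at most 6 counts in any library.

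PSCA (ENSG00000167653.5; chromosome 8, 142670308 to 142682725, plus strand) was called higher at low abundance. The empty-vector libraries had 5.33, 5.84, 3.37 and 4.39 CPM. The ADRA2A libraries had 6.37, 5.54, 7.27 and 8.85 CPM. ADRA2A replicate 2 lay within the empty-vector range and the other 3 above it. The means were 4.73 ± 1.09 and 7.01 ± 1.42 CPM (SD, n = 4 each), with a log2 fold change of 0.58 ± 0.17 (SE) at an adjusted p of 0.0109 in edgeR. Without ADRA2A replicate 4 the log2 fold change was 0.44 and the call was lost (adjusted p = 0.0535; the alternatives spanned 6.94e-04 to 0.0535).

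Among the other LY6/uPAR genes, 10 of 17 were tested, 2 higher and 5 lower. LY6E and LYNX1, which lie within 1 Mb of PSCA, rose by log2 fold changes of 0.51 and 1.10. LY6K, the nearest tested gene of the family to PSCA, fell by 0.18 on the log2 scale. LYPD3 (C4.4A), a squamous epithelial antigen, fell from 11.7 ± 0.880 to 5.24 ± 0.281 CPM (SD, n = 4 each; log2 fold change -1.16 ± 0.11, SE, with edgeR adjusted p = 3.91e-08). LYPD1 fell from 114.4 ± 7.06 to 66.7 ± 2.41 CPM (SD, n = 4 each; log2 fold change -0.78 ± 0.05, SE, with edgeR adjusted p = 1.10e-10).

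**Figure D3:**
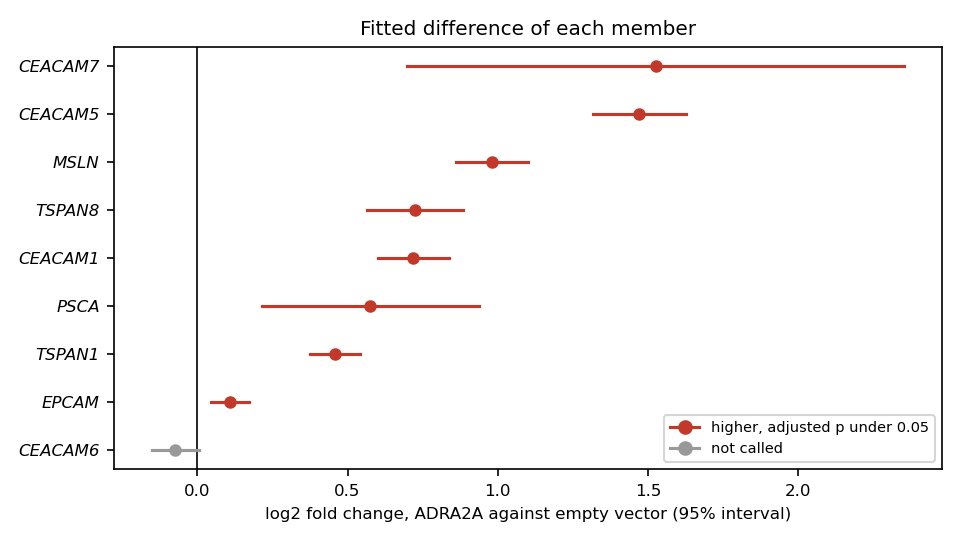
Log2 fold change of each member, ADRA2A against empty vector (horizontal axis), with its 95% interval from edgeR's quasi-likelihood fit. The 8 called members lie to the right of 0, from EPCAM at 0.11 to CEACAM7 at 1.53, and the interval of CEACAM6 reaches 0.

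Levels were compared between members per length, as CPM per kb of the canonical transcript. In the empty-vector cells the order was EPCAM (304.2 ± 3.73), TSPAN1 (154.7 ± 8.34), CEACAM6 (88.7 ± 2.23), TSPAN8 (18.8 ± 2.33), MSLN (12.9 ± 0.810), CEACAM1 (11.2 ± 0.639), PSCA (4.82 ± 1.11), CEACAM5 (3.57 ± 0.249) and CEACAM7 (0.230 ± 0.141 CPM per kb, SD, n = 4 each). Only the neighbours PSCA and CEACAM5 overlapped between libraries. In the ADRA2A cells the order was the same except that CEACAM5 (9.90 ± 0.608 CPM per kb) stood above PSCA (7.14 ± 1.44 CPM per kb, SD, n = 4 each), and no neighbours overlapped. With the length of all exons of a gene in place of 1 transcript, MSLN stood above TSPAN8 in both groups, and CEACAM5 above PSCA in the empty-vector cells too. Among the 14738 tested genes with a length, EPCAM stood at the 98.8th percentile of CPM per kb in both groups. CEACAM5 went from the 33.3rd to the 56.9th percentile and MSLN from the 64.8th to the 80.0th.

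The genes around the members were examined for shifts shared along a chromosome. Within 1 Mb of TSPAN1, 13 of 28 tested neighbours were higher and 0 lower, at a median of 0.17 on the log2 scale. Within 3 Mb, 32 of 65 were higher and 3 lower. TSPAN1, at 0.46, stood above that median, and the part of the shared shift in its rise was not tested. For PSCA, 8 of 25 neighbours were higher and 2 lower, with a median of 0.14, against a median of 0.03 within 3 Mb. For MSLN, 15 of 49 were higher and 4 lower, with a median of -0.01. Around CEACAM5, 4 of 38 were higher and 9 lower, with a median of 0.01, and 2 of the 4 were CEACAM1 and CEACAM7. EPCAM had 0 of 14 neighbours higher and 3 lower, and TSPAN8 had 1 of 10 higher and 1 lower. For comparison, 21.6% of all genes tested were called higher and 21.1% lower.

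**Figure D4:**
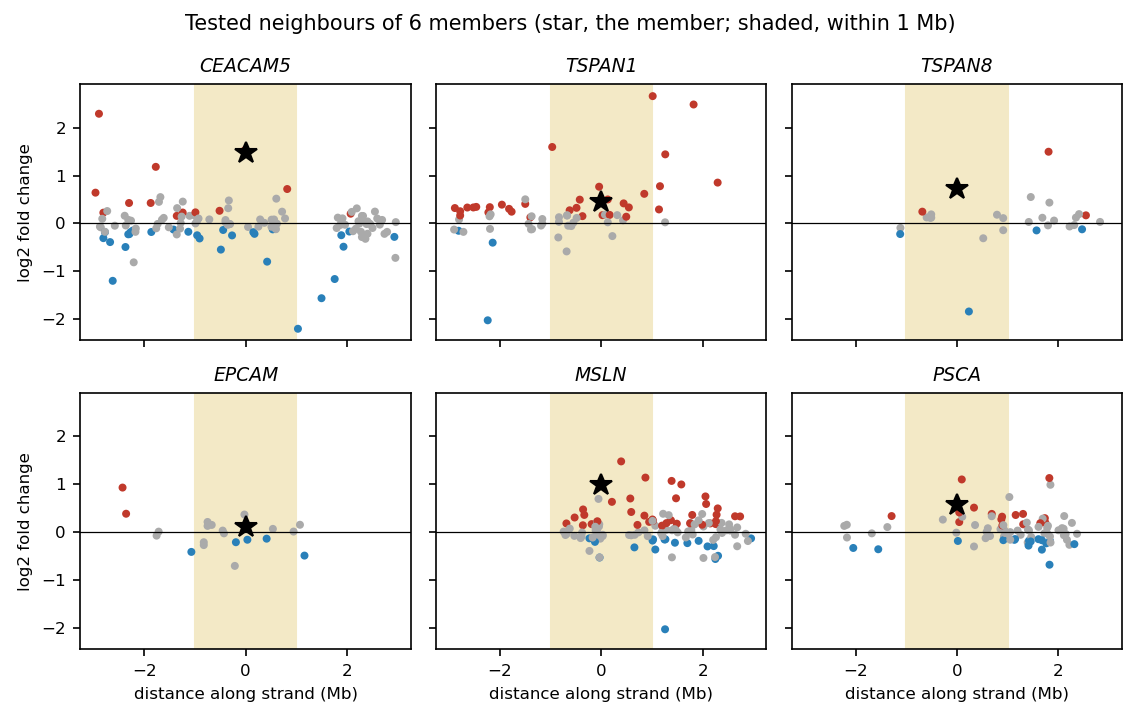
Log2 fold change (vertical axis) of the tested genes within 3 Mb of 6 members against their distance from the member's start along its strand (horizontal axis, Mb). Red points were called higher, blue lower and grey neither; the star is the member and the shaded band marks 1 Mb. CEACAM5 stands above 124 of its 126 neighbours and MSLN above 121 of 125, while the neighbours of TSPAN1 have a median of 0.17.

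The genes that build, attach and trim GPI anchors, which hold CEACAM5, CEACAM6, CEACAM7, MSLN and PSCA, were counted as a list. Of 31 genes 30 were tested, with 12 higher, 1 lower and a median log2 fold change of 0.17. PGAP3, which remodels the lipid of the anchor, rose from 33.7 ± 2.27 to 58.8 ± 2.56 CPM (SD, n = 4 each; log2 fold change 0.80 ± 0.06, SE, with edgeR adjusted p = 6.78e-10). The transport receptors of anchored proteins TMED2 and TMED10 rose by log2 fold changes of 0.23 and 0.18. In the transamidase that attaches the anchor, PIGK rose by 0.25 and PIGS by 0.25, while PIGT, PIGU and GPAA1 were not called. PIGW, an early synthesis enzyme, fell by 0.51 on the log2 scale.

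Other carcinoma surface antigens were split. Of 34 genes 29 were tested, 13 higher and 7 lower, and their median was 0.10 on the log2 scale. MUC1, a membrane mucin, rose from 278.6 ± 11.9 to 483.0 ± 24.7 CPM (SD, n = 4 each; log2 fold change 0.79 ± 0.04, SE, with edgeR adjusted p = 4.76e-12). ERBB3 rose by 0.92 and ERBB2 by 0.50, whereas EGFR fell by 0.48 on the log2 scale. AXL, a receptor kinase found with mesenchymal traits, fell from 816.3 ± 8.93 to 559.2 ± 13.6 CPM (SD, n = 4 each; log2 fold change -0.55 ± 0.03, SE, with edgeR adjusted p = 1.51e-11). CDH17 and FOLR1, chosen for mention after their values were seen, had the highest log2 fold changes of the list, 1.76 and 1.64. F3, tissue factor, fell by 0.52 on the log2 scale.

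**Figure D5:**
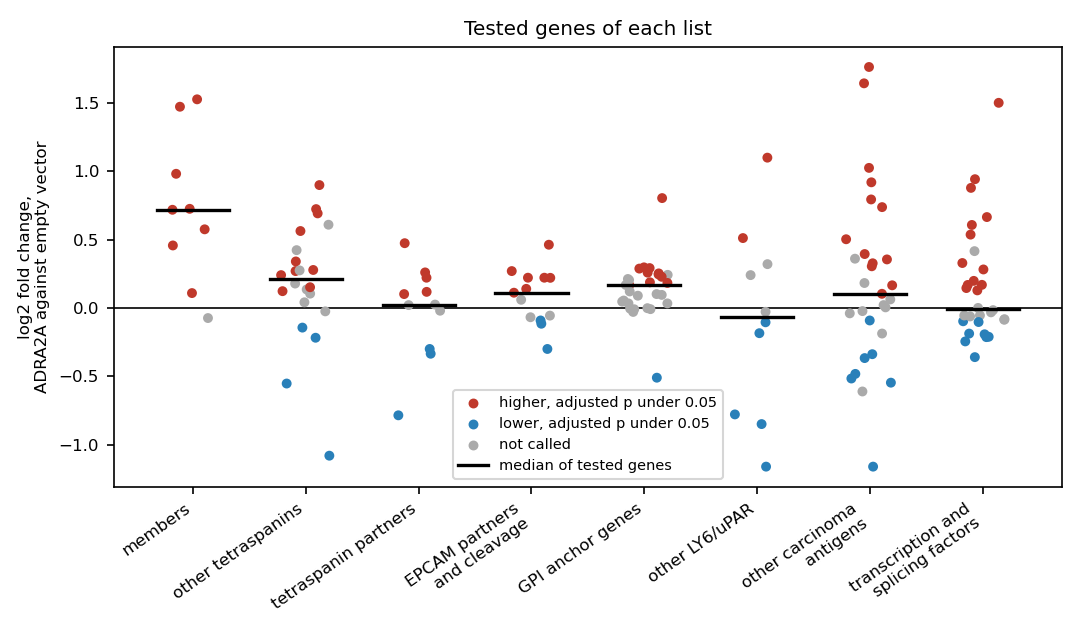
Log2 fold change (vertical axis) of each tested gene of the members and of 7 related lists, coloured by its call, with the median of each list as a bar. The members have a median of 0.72, against 0.21 for other tetraspanins, 0.17 for GPI anchor genes and -0.07 for other LY6/uPAR genes.

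Of 32 transcription and splicing factors tied to these genes, 30 were tested, 13 higher and 8 lower, with a median log2 fold change of -0.01. Without empty-vector replicate 3, ADRA2A replicate 2 or ADRA2A replicate 4, the number lower was 5. The intestinal factor CDX2 rose from 2.02 ± 0.610 to 5.67 ± 0.253 CPM (SD, n = 4 each; log2 fold change 1.5 ± 0.19, SE, with edgeR adjusted p = 2.95e-06). HNF4A, HNF4G and the epithelial factor ELF3 rose by log2 fold changes of 0.94, 0.88 and 0.66. IRF1, an interferon-induced factor, rose by 0.28, and the E-box factor USF1 by 0.13 while USF2 was not called at -0.02. SOX9, a duct factor, fell by 0.21 on the log2 scale, and ESRP1, an epithelial splicing factor, by 0.19. Epithelial factors went both ways: KLF5 rose by 0.20, while ESRP2 (log2 fold change -0.19), KLF4 (-0.21, edgeR adjusted p = 0.0484) and EHF (-0.10, edgeR adjusted p = 0.0467) were lower. ZEB1, a repressor of epithelial genes, rose by 0.61. The TEAD coactivator WWTR1 (TAZ) fell by 0.24, and YAP1 was not called at -0.06.

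Genes with the most similar pattern were sought by Pearson correlation of log2 CPM over the 8 libraries, among genes with at least 10 CPM. The values describe these libraries, which are shared by all genes, and a gene that differs clearly between groups tends to correlate with others that do. NFKBIZ was the most similar to CEACAM1 (r = 0.9987), CD82 to TSPAN8 (r = 0.995), PRR15L to MSLN (r = 0.999) and PCDH1 to TSPAN1 (r = 0.9995). For CEACAM5 it was COPG1 (r = 0.9997), for EPCAM FAM155A (r = 0.99), for CEACAM6 PIMREG (r = 0.99), for CEACAM7 TECPR1 (r = 0.969) and for PSCA KIAA0895L (r = 0.973). CEACAM5 had 700 genes with r over 0.95, and CEACAM1, TSPAN1, TSPAN8 and MSLN had between 453 and 721. CEACAM6 had 11, and the called members EPCAM, PSCA and CEACAM7 had 63, 15 and 9.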

How the data were processed

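Bulk RNA sequencing was done on 8 CFPAC-1 samples, 4 with empty vector and 4 with the ADRA2A transgene, grouped by their titles. The authors deposited RSEM expected counts per gene, not scaled between samples, and between 4.61% and 4.90% of entries per library were not whole. The submitters' processing notes name cutadapt, STAR, RSEM, DESeq2 and the build hg38; versions, annotation release, read length and strand use were not given in the sources used here. Counts of overlapping or near-identical genes may therefore have been divided in a way that cannot be checked.

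Counts were rounded to whole numbers and filtered with filterByExpr in edgeR 4.0.16 (R 4.3.3), which kept 14785 of 58870 genes holding at least 99.88% of each library. Library sizes were scaled by TMM, with factors from 0.9938 to 1.0055. The group was the single term of edgeR's quasi-likelihood test over all 8 libraries, and Benjamini-Hochberg adjusted p-values are over all genes tested. The SE is the absolute log2 fold change divided by the square root of F. Gene positions and lengths came from GENCODE release 44 on GRCh38, where 58517 identifiers matched. The fit was tested on simulated data with the same spread for all genes. Of 96 genes changed by 0.5 on the log2 scale edgeR recovered 86.5%, and of 104 changed by 1 it recovered 97.1%. Far fewer genes were changed there than were called in these data, so it does not test the fit under that many changes.

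The members and lists were chosen with earlier results of these data known. Named were the 9 members, ADRA2A, the 3 genes of each list with the smallest p-value, CDX2, HNF4A, SOX9, ESRP1, IRF1, CLDN7 and MUC16 whatever their result, and the gene most similar to each member; other genes were chosen after their values were seen. Some genes counted in the lists are not reported here by name. Lists were written by hand from general knowledge. Depth limits CEACAM7 and PSCA most. Alternatives were DESeq2 1.42.0, limma voom (3.58.1), RLE and upper quartile factors, filters of 1 count in any library or a mean of 50 counts, a replicate block and leaving out each library. The planned comparison of protein sequences was not run.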

Additional observations from a re-analysis of the deposited data

Results flagged for a closer look

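Among 86 groups of 4 libraries examined for a library far from the others, 1 stood out. Chance alone flags about 1 of every 20 such groups, so 1 of 86 is no more than chance gives. IRF1 had 80.2 CPM in ADRA2A replicate 2 against 86.4, 85.5 and 85.4 CPM in replicates 1, 3 and 4, and the gap took 0.842 of the range. All 4 values lay above the empty-vector range of 67.0 to 70.9 CPM.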

How the results depend on the processing

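The number of members called was 8 higher and 0 lower in every alternative but 2. It was 7 higher without ADRA2A replicate 4, where PSCA was not called, and 7 with the mean of at least 50 counts, where CEACAM7 was not tested. No member changed direction. When single libraries were left out, the log2 fold change of PSCA lay between 0.44 and 0.69, the tetraspanins called lower between 2 and 4, the transcription and splicing factors called lower between 5 and 8, and the mesothelin relatives and MUC16 called higher between 0 and 1. MUC16 was the 1 gene of that list to be called, also with no filter, with the mean of at least 50 counts and with the replicate block. With the mean of at least 50 counts, 0 pregnancy-specific glycoprotein genes were called, since neither passed that filter. CEACAM19 had log2 fold changes between -0.067 (without ADRA2A replicate 4) and 0.076 (without ADRA2A replicate 2). Over all genes tested, between 2916 and 3310 were called higher and between 2787 and 3412 lower.

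Same-numbered samples did not deviate together (correlations from -0.04 to 0.07), and only 2 of 8 libraries correlated best with their own number. With the replicate block 3247 genes were higher and 3153 lower, against 3195 and 3119, and 8 members were higher. MUC16 was called with the block (adjusted p = 0.0135).

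With the length of all exons, levels in empty-vector and ADRA2A cells were 7.09 and 11.7 CPM per kb for CEACAM1, 3.14 and 8.69 for CEACAM5, 77.8 and 73.9 for CEACAM6, 106 and 145 for TSPAN1, 8.78 and 14.5 for TSPAN8, 194 and 209 for EPCAM, 10.9 and 21.5 for MSLN, and 2.68 and 3.98 for PSCA. Within 3 Mb in place of 1 Mb, the median of the neighbours was -0.024 for CEACAM1, 0.039 for MSLN and 0.034 for PSCA; the cause was not tested. CEACAM7, with at most 35 counts in a library, is limited by depth.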

Other observations

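The pregnancy-specific glycoprotein genes, relatives of the CEACAMs on chromosome 19 that are normally made by the placenta, were counted as a list. Of 10 genes 2 were tested and both were lower in the ADRA2A cells. PSG4 fell from 1.80 ± 0.519 to 0.605 ± 0.192 CPM (SD, n = 4 each; log2 fold change -1.56 ± 0.32, SE; edgeR adjusted p = 6.07e-04). PSG3 fell from 1.13 ± 0.260 to 0.244 ± 0.127 CPM (SD, n = 4 each; log2 fold change -2.20 ± 0.41, SE; edgeR adjusted p = 2.16e-04). The untested members had at most 6 counts in a library, and PSG8 held 12 counts over the 4 empty-vector libraries and 0 over the 4 ADRA2A libraries. These genes are near-identical copies, so the division of reads between them is uncertain.

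Of the endothelial markers, PECAM1 rose from 0.773 to 2.44 CPM (log2 fold change 1.66; edgeR adjusted p = 8.12e-05), while CDH5 had at most 1 count and VWF at most 4 counts in a library.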
